A study of Mus musculus with 18 samples.

Results

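The aryl hydrocarbon receptor (AhR) axis was read in mouse spleen from 8 genes, Ahr, Arnt, Ahrr, Tiparp, Cyp1a1, Cyp1b1, Cyp4b1 and Ido1, each found by its symbol in a deposited expression table of 19326 entries. All 8 were present, and 5 of them reached at least 1 FPKM (a fragment count scaled for transcript length and library total) in at least 3 libraries, which was the minimum for a test. The genes were chosen by the measured level of Cyp1b1 in spleens of mice on high fat diet and streptozotocin against untreated controls, so that difference is given as a description only. Earlier results of these data were also known when the members, lists and comparisons were chosen. The RNA came from spleens of ICR mice, 10 weeks old, and was sequenced as 18 libraries, 3 for each of 6 groups.

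The HS_AOSFMT group had high fat diet and STZ (streptozotocin, which destroys insulin-producing cells) together with a faecal microbiota transplant (FMT) labelled AOS10mg/kg-FMT. The HS_conFMT group had the same diet and STZ with a transplant labelled control-FMT, and the HS_AOS group had them with AOS at 10 mg/kg. The HS group had the diet and STZ alone, the AOS group had AOS at 10 mg/kg alone, and the control group is labelled control without further treatment. The labels do not spell out AOS, and they leave it unsaid whether each library is a mouse of its own, so a p-value here reflects only how far the libraries of a group scattered. The tissue matched its label: the B cell gene Cd79a lay between 508 and 1123 FPKM, the T cell gene Cd3e between 17.3 and 50.9 FPKM, and the red pulp macrophage gene Spic between 36.3 and 66.8 FPKM over the 18 libraries.

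AhR is a transcription factor that waits in the cytoplasm in a complex with heat shock protein chaperones. It is switched on by small planar molecules, among them dioxins, plant indoles, tryptophan products of gut bacteria and kynurenine made by the host, and it then pairs with ARNT in the nucleus and binds DNA at a short GCGTG core. Its classical targets are the cytochromes encoded by Cyp1a1 and Cyp1b1, which oxidise aromatic compounds and steroids, and the genes Ahrr and Tiparp, whose products shut the receptor down again. In immune tissue the receptor is known for its part in T cell, dendritic cell and innate lymphoid cell function. Cyp4b1 encodes a cytochrome that oxidises fatty acids and some xenobiotics, and Ido1 encodes the interferon-inducible enzyme that starts the kynurenine pathway and so supplies AhR ligands.

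The AhR core is written in the DNA just upstream of several of these genes, and 4 upstream windows are shown because they belong to the target that varied most in these spleens, a classical target that stayed low, the receptor's repressor and the other cytochrome that varied. The windows are the 250 bases before the RefSeq start site (build GRCm38.p6), given 5′ to 3′ on the gene's own strand. Capitals mark every GCGTG, or CACGC where the core lies on the opposite strand. Cyp1b1 lies at chr17:79715062-79715311 on the minus strand, Cyp1a1 at chr9:57697363-57697612 on the plus strand, Ahrr at chr13:74292332-74292581 on the minus strand and Cyp4b1 at chr4:115647722-115647971 on the minus strand.
Cyp1b1: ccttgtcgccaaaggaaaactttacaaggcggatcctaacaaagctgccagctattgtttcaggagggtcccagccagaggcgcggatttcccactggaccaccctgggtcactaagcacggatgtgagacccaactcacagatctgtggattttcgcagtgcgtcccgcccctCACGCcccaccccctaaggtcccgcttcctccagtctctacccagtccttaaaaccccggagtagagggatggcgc
Cyp1a1: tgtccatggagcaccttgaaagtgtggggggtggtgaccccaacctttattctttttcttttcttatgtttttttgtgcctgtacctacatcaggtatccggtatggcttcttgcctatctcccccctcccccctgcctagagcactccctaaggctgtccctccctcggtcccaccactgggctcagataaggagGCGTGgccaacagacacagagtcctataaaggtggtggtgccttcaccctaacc
Ahrr: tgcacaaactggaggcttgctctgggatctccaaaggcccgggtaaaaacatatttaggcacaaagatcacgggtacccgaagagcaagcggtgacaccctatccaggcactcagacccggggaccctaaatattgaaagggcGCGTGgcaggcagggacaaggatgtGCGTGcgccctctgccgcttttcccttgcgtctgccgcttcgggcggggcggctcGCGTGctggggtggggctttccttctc
Cyp4b1: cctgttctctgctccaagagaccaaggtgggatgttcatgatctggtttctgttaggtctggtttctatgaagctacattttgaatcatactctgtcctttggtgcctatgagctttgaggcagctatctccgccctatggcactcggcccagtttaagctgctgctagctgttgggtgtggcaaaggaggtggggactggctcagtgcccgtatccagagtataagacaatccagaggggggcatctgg

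Cyp1b1 held 1 core, on the opposite strand with its first base at position -76 from the start, and Cyp1a1 held 1 at position -54. Ahrr held 3 cores, at positions -107, -82 and -27, and the last also matched the longer form TNGCGTG, in which N is any base. Cyp4b1 held 0. Among 32851 RefSeq windows of this length, 28.2% held at least 1 core on either strand, 2.77% held at least 3 and 4.10% held the longer form. Of the 8 genes, 6 had a window in the RefSeq table, and Arnt and Tiparp also held 1 core each. The receptor's well-known enhancer of Cyp1a1 lies farther upstream than these windows, and a match is a run of letters, not a measured binding site.

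Across the 6 groups, the axis did not move as a block. Cyp1b1 was highest in HS_AOSFMT spleens and lowest in control spleens, Cyp4b1 was lowest in AOS spleens and about level over the 4 groups with diet and STZ, and Ahr was highest in HS_AOSFMT spleens. Arnt varied little, and Cyp1a1, Ahrr and Ido1 stayed under 1 FPKM in all 18 libraries. Differences between groups accounted for 81.9% of the variance of Cyp1b1 over the libraries, 82.6% of that of Cyp4b1 and 71.7% of that of Ahr, against 23.6% for Arnt. These shares are descriptions, with no value for all genes beside them. The share for Cyp1b1 includes the HS and control libraries that led to its choice. Changes below are limma log2 changes of FPKM + 1 with their standard error (SE), and a gene is called at a Benjamini-Hochberg adjusted p under 0.05 over the 12969 genes tested. No member was called in HS_conFMT against HS or in AOS against control, where 1 gene each (0.00771%) was called. For the difference between the effects of diet and STZ with and without AOS, 1 gene (0.00771%) was called. No tested member was called there, leaving aside Cyp1b1, which is given without a test.

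**Figure D1:**
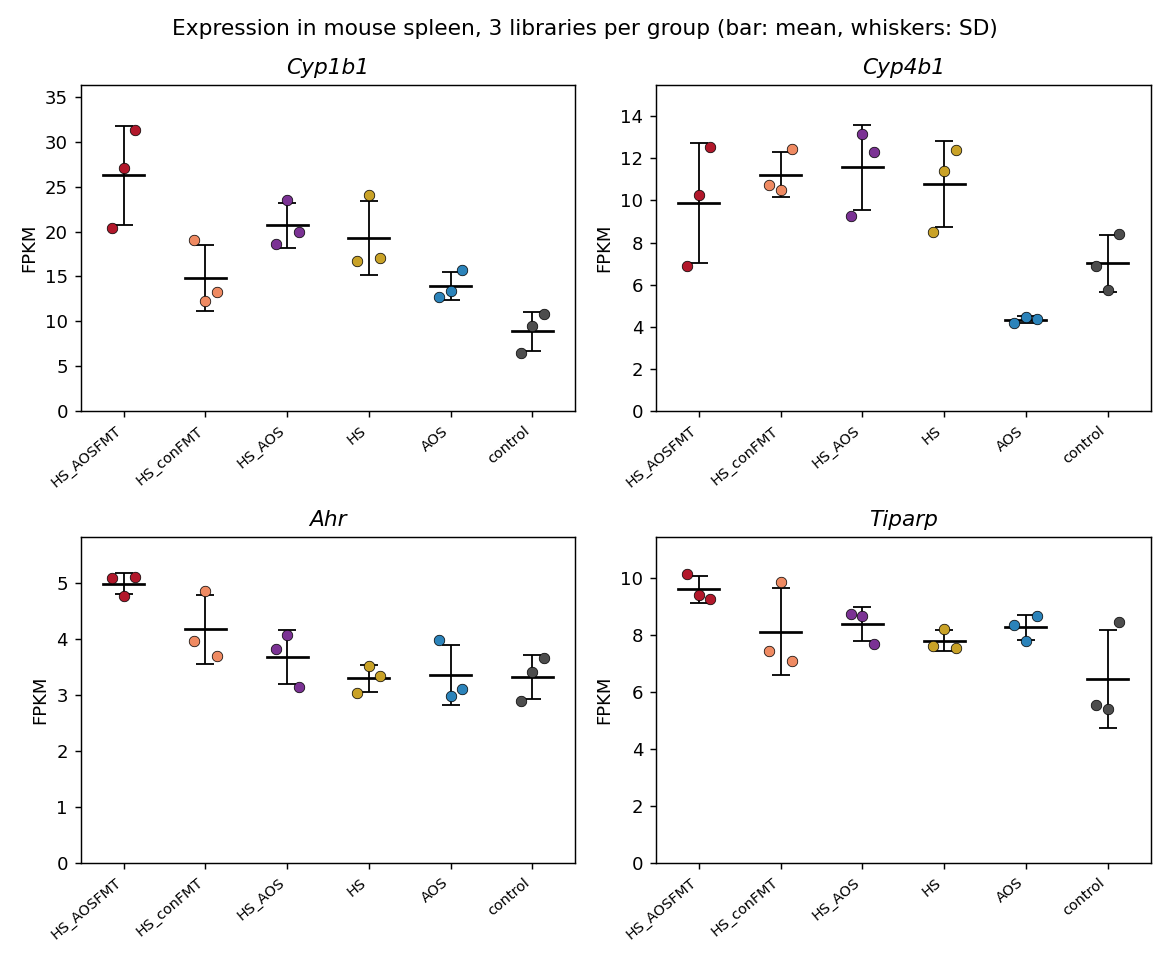
Level (FPKM, y axis) of Cyp1b1, Cyp4b1, Ahr and Tiparp in the 6 groups (x axis); each point is 1 library, the bar is the mean and the whiskers the SD of 3 libraries. Cyp1b1 runs between 20.4 and 31.3 FPKM in HS_AOSFMT spleens and between 6.47 and 10.8 FPKM in control spleens, and Cyp4b1 between 4.18 and 4.47 FPKM in AOS spleens.

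Ahr, the receptor itself, lay between 2.89 and 5.11 FPKM. Its values were 5.09, 4.77 and 5.11 FPKM in HS_AOSFMT spleens, against 3.04, 3.52 and 3.34 FPKM in HS spleens. The groups did not overlap, as for 30.8% of all genes in this direction, and the means were 4.99 ± 0.191 and 3.30 ± 0.242 FPKM (SD, n = 3 each). Ahr rose by a log2 change of 0.48 (SE 0.12, adjusted p = 0.0234), the single call among the 5 tested genes of the axis. In that comparison 9.23% of all genes tested were called and the median change of all genes was 0.10, so 1 call in 5 members is near the background.

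In the other spleens with diet and STZ, Ahr had 3.97, 4.86 and 3.69 FPKM with the control transplant and 3.83, 4.08 and 3.14 FPKM with AOS. It had 3.98, 2.99 and 3.10 FPKM in AOS spleens and 2.89, 3.41 and 3.67 FPKM in control spleens. The HS_conFMT values all lay above those of HS, as for 7.78% of all genes, with a log2 change of 0.26 that was not called (adjusted p = 0.765). HS and control spleens had nearly the same mean, 3.30 ± 0.242 and 3.32 ± 0.397 FPKM (log2 change -0.01, 95% interval -0.25 to 0.24). Between the transplants, HS_AOSFMT against HS_conFMT, the log2 change was 0.22 (adjusted p = 0.278) and 1 HS_conFMT library, at 4.86 FPKM, lay among those of HS_AOSFMT. Against AOS, a comparison added after the data had been seen, Ahr rose in HS_AOSFMT spleens by a log2 change of 0.47 (SE 0.12, adjusted p = 0.0272), and 3 of the 5 tested members were called where 6.05% of all genes were. That call was lost without any 1 of HS_AOSFMT 1, HS_AOSFMT 2, HS_AOSFMT 3, AOS 2 or AOS 3 (adjusted p of 0.0585 to 0.104).

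The libraries highest for Ahr were also those with the least haemoglobin RNA. The share of haemoglobin genes in the summed FPKM was 12.9 to 17.6% in HS_AOSFMT libraries and 26.8 to 29.1% in HS libraries. Against HS, 8.08% of all genes were called higher and 1.15% lower in HS_AOSFMT spleens. Of 12 erythroid marker genes 0 had a log2 change above 0, and their median was -0.97, beside 0.10 for all genes. Of the 12, 0 were called higher and 1 lower. That gene was Alas2, which starts haem synthesis in red cell precursors, at 290.1 ± 56.8 FPKM against 641 ± 15.4 FPKM in HS spleens. All 4 libraries highest for Ahr (the 3 of HS_AOSFMT and HS_conFMT 2) were among the 5 lowest for haemoglobin, while the fifth of these, AOS 3 at 17.2% haemoglobin, had 3.10 FPKM of Ahr. With the values rescaled to a total without haemoglobin and pancreatic acinar genes, the log2 change of Ahr in HS_AOSFMT against HS was 0.38 and the call was lost (adjusted p = 0.0631). In bulk tissue, fewer cells of a type and less RNA per cell cannot be told apart.

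The Ahr call also rested on single libraries. It was lost without HS_AOSFMT 1 (adjusted p = 0.0833), HS_AOSFMT 3 (0.0780), HS 1 (0.0934) or HS 3 (0.0604), with log2 changes of 0.44 to 0.49, and it remained without HS_AOSFMT 2 (0.0481) or HS 2 (0.0382). HS 1 had the second largest pancreatic acinar signal of the series, a summed 23126 FPKM over 18 acinar genes, against 24 to 74 FPKM in HS_AOSFMT libraries, and 15 of these 18 genes were called lower in HS_AOSFMT spleens. Its part in the result was not tested beyond these fits.

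**Figure D2:**
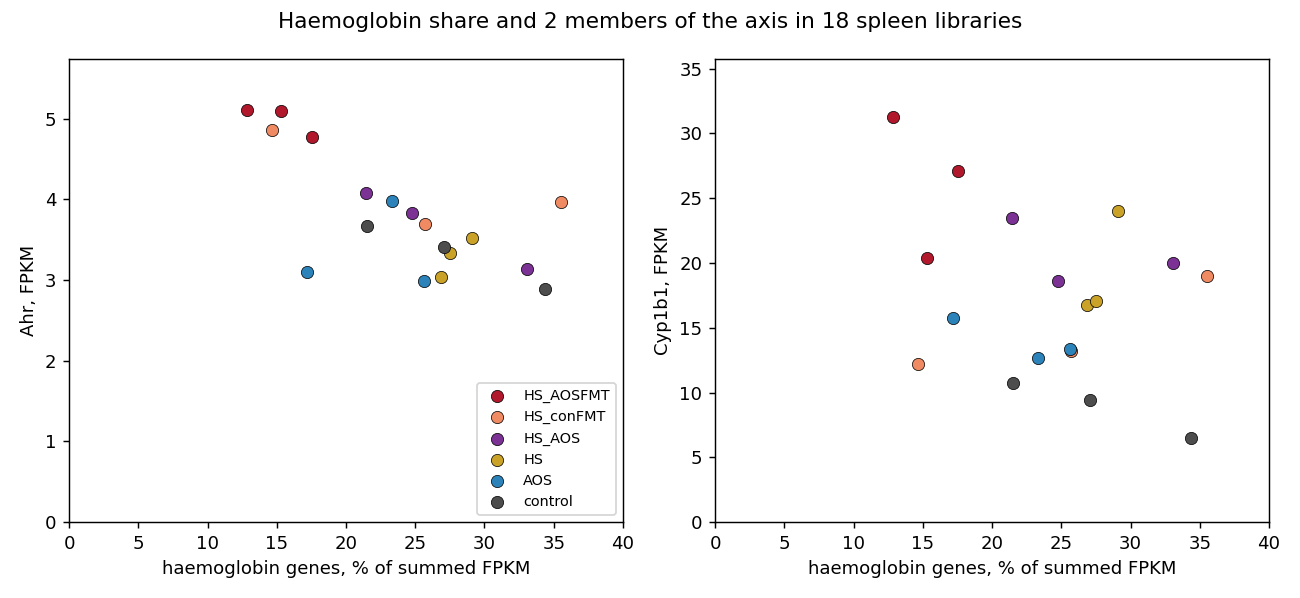
Level of Ahr (left) and Cyp1b1 (right), in FPKM on the y axis, against the share of haemoglobin genes in the summed FPKM (x axis, %); each point is 1 of 18 libraries, coloured by group. The 4 libraries highest for Ahr (4.77 to 5.11 FPKM) all have at most 17.6% haemoglobin, and in these 4 libraries Cyp1b1 runs between 12.2 and 31.3 FPKM.

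Arnt, the partner of AhR and of several related factors, was the steadiest member. It lay between 13.9 and 18.4 FPKM over the 18 libraries, with means of 16.7 ± 1.33 FPKM in HS_AOSFMT, 14.9 ± 0.982 in HS_conFMT, 16.1 ± 1.36 in HS_AOS, 15.2 ± 0.323 in HS, 15.2 ± 0.854 in AOS and 15.6 ± 2.41 in control spleens. All 6 groups overlapped their neighbours in the order of means. Its largest log2 change, 0.15 (95% interval -0.05 to 0.36), was that between the transplants, HS_AOSFMT against HS_conFMT (adjusted p = 0.373).

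The chaperones and partners of the receptor were read from a list of 10 genes, all of them tested. None of the 10 was called in HS_AOSFMT against HS, in HS_AOSFMT against HS_conFMT, in HS against control or in HS_AOS against AOS, and their median log2 changes there were 0.15, 0.04, 0.13 and -0.07, beside medians of all genes of 0.10, 0.06, -0.01 and -0.01. Hsp90ab1, which encodes the chaperone that holds the receptor, averaged 1419.5 ± 137 FPKM in HS_AOSFMT spleens, against 810.0 ± 92.5 FPKM in AOS spleens, and was called in that comparison (log2 change 0.81, SE 0.23, adjusted p = 0.0485). That comparison was added after the data had been seen. In it 1 of the 10 was called, where 6.05% of all genes were, so the count is near the background. Hsp90ab1 averaged 883 ± 87.5 FPKM in HS_conFMT spleens and 1038 ± 322 FPKM in HS spleens.

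Tiparp encodes a mono-ADP-ribosyltransferase that is induced by AhR and marks it for breakdown. It had 10.2, 9.43 and 9.27 FPKM in HS_AOSFMT spleens, against 7.63, 8.23 and 7.55 FPKM in HS spleens. The groups did not overlap, but the log2 change of 0.27 (SE 0.13) was not called (adjusted p = 0.202), where, as for Ahr, 30.8% of all genes lay higher without overlap. Control spleens had 2 libraries well below all others, at 5.54 and 5.40 FPKM, and the remaining one at 8.46 FPKM, and the control mean was 6.47 ± 1.73 FPKM. The HS_conFMT, HS_AOS, and AOS means were 8.13 ± 1.52, 8.38 ± 0.599 and 8.28 ± 0.435 FPKM. The 4 libraries highest for Tiparp were the same 4 as for Ahr, and over the 18 libraries the log2 levels of Ahr and Tiparp had a Pearson r of 0.69 (Spearman rho 0.69), and of 0.65 once group means were taken out. The libraries share the haemoglobin differences described above.

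Ahrr encodes the repressor that competes with AhR for ARNT and for its DNA site, and it was low in every spleen. Its values lay between 0.22 FPKM, in HS_conFMT and HS_AOS libraries, and 0.48 FPKM, in a control library. Group means ran between 0.24 FPKM in HS_conFMT and 0.36 FPKM in AOS spleens, with overlap between all neighbours. The gene did not reach the minimum for a test, so it has no test here. Read depth is not known from FPKM alone, so no limit of detection is given.

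Cyp1a1, the most AhR-responsive gene in most tissues, was lower still. It had 0.08, 0.03 and 0.03 FPKM in HS_AOSFMT spleens, against 0.27, 0.16 and 0.44 FPKM in HS spleens, while the other 4 groups lay between 0.08 and 0.19 FPKM. The HS_AOSFMT values were all below those of HS. Of the 12969 genes that passed the minimum level, which Cyp1a1 did not, 7.64% were lower without overlap in this comparison. In a fit without the minimum level, which covered 18908 entries, the log2 change of Cyp1a1 in HS_AOSFMT against HS was -0.30 (SE 0.06, adjusted p = 0.0205), and in none of the other comparisons was it called. At levels under 0.5 FPKM the pseudocount of 1 FPKM holds both such a change and its spread small. The share of all entries called in that fit is not given here, so the call is a description. In the same comparison the log2 changes of Ahr and Cyp1b1 were 0.48 and 0.42.

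**Figure D3:**
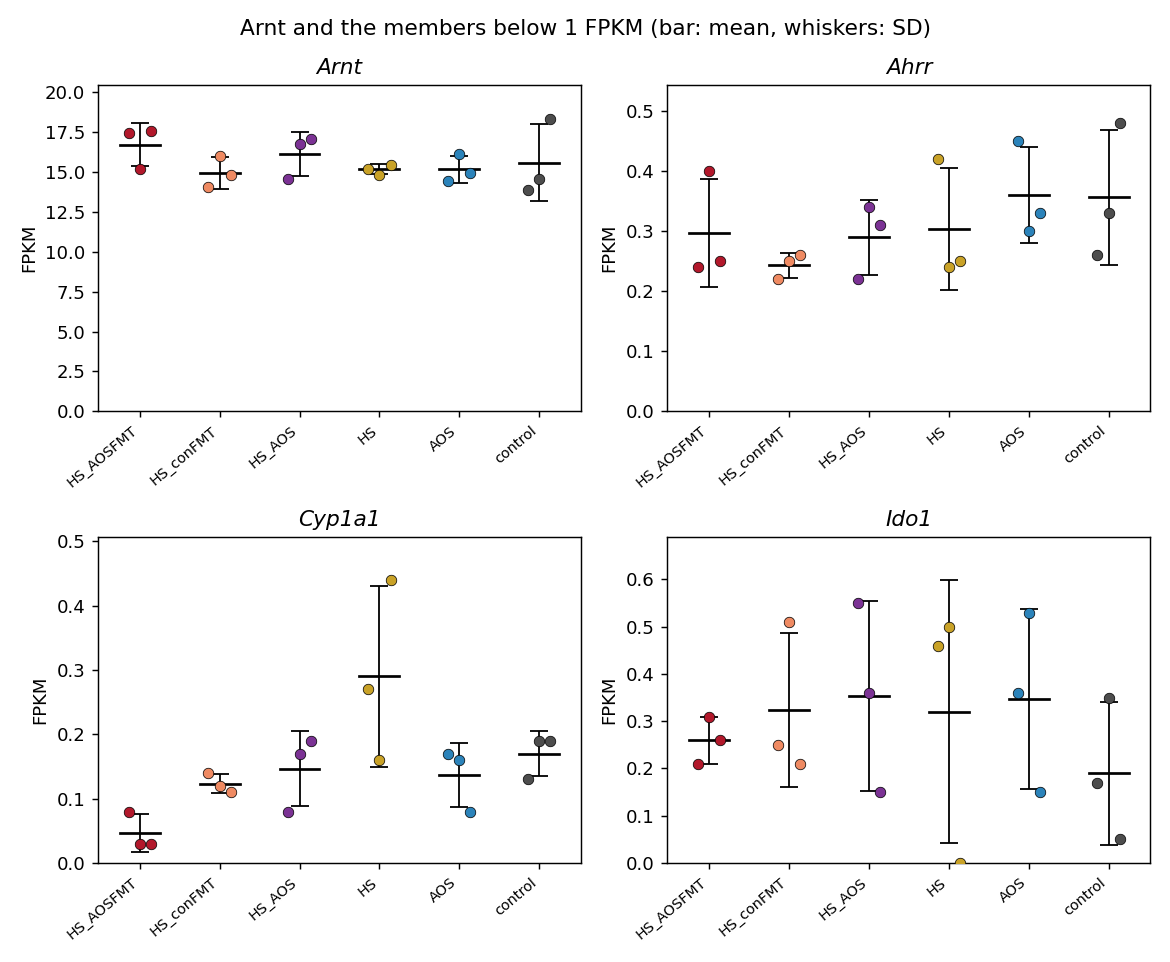
Level (FPKM, y axis, each panel with its own scale from 0) of Arnt, Ahrr, Cyp1a1 and Ido1 in the 6 groups (x axis); points are libraries, bars means and whiskers SD (n = 3). Arnt stays between 13.9 and 18.4 FPKM, and the other 3 genes stay under 0.6 FPKM in every library.

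Cyp1b1, an AhR target whose product metabolises oestradiol, retinoids and polycyclic hydrocarbons, spanned the widest range of the tested members, 6.47 to 31.3 FPKM. It had 20.4, 27.1 and 31.3 FPKM in HS_AOSFMT spleens, 19.0, 12.2 and 13.2 FPKM in HS_conFMT spleens and 18.6, 23.5 and 20.0 FPKM in HS_AOS spleens. HS spleens had 16.8, 24.0 and 17.1 FPKM, AOS spleens 12.7, 13.4 and 15.7 FPKM, and control spleens 6.47, 9.44 and 10.8 FPKM. Of the 12 libraries with diet and STZ, 10 lay above the highest of the other 6 (15.7 FPKM), and the 2 that did not were HS_conFMT libraries. For 0.532% of all genes tested at least 10 of the 12 lay above the other 6, and for 0.1% all 12 did. The count for Cyp1b1 is a description, since it holds the HS and control libraries that led to the choice of the gene. In order of the means (26.2 in HS_AOSFMT, 20.7 in HS_AOS, 19.3 in HS, 14.8 in HS_conFMT, 13.9 in AOS and 8.89 FPKM in control spleens), each group overlapped the next except AOS and control.

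The difference that led to the choice of Cyp1b1 was that between HS spleens, at 19.3 ± 4.10 FPKM, and control spleens, at 8.89 ± 2.20 FPKM. The ratio of the means was 2.17 and the log2 change 1.04, and leaving out any 1 library put it between 0.85 and 1.18. This is a description, with no test. In that comparison 0.0154% of all genes tested were called, and 0 of the other 4 tested members.

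Between the transplants, Cyp1b1 averaged 26.2 ± 5.51 FPKM in HS_AOSFMT spleens and 14.8 ± 3.67 FPKM in HS_conFMT spleens (SD, n = 3 each). The groups did not overlap, as for 21.5% of all genes in this direction, and Cyp1b1 rose by a log2 change of 0.79 (SE 0.20, adjusted p = 0.0347), the single call among the 5 tested members in a comparison with 5.85% of all genes called. These 6 libraries do not include the HS and control libraries behind its choice. Earlier results of these data were known when the members and comparisons were chosen, and the spread is estimated over all 18 libraries. The call is therefore not independent of that choice. The call was lost when haemoglobin and acinar genes were taken out of the total (log2 change 0.70, adjusted p = 0.0750), when no minimum level was set (adjusted p = 0.0510) and when the 2 groups were fitted alone (0.105). It was also lost without HS_AOSFMT 2 (0.101), HS_AOSFMT 3 (0.128), HS_conFMT 2 (0.0708) or HS_conFMT 3 (0.106), at log2 changes of 0.65 to 0.76.

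Against HS, neither transplant moved Cyp1b1 past the threshold: the log2 change was 0.42 (adjusted p = 0.183) in HS_AOSFMT and -0.36 (adjusted p = 0.791) in HS_conFMT. Both comparisons share the HS libraries, which also entered the choice of the gene. HS_AOS spleens, at 20.7 ± 2.50 FPKM, differed from HS spleens by a log2 change of 0.11 (95% interval -0.32 to 0.54, adjusted p = 0.999). In that comparison limma called 0 of all 12969 genes (0%, and 674 at an unadjusted p under 0.05).

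With AOS alone, Cyp1b1 averaged 13.9 ± 1.58 FPKM, against 8.89 ± 2.20 FPKM in control spleens. The groups did not overlap, as for 11.6% of all genes tested in this direction, and the log2 change of 0.62 (SE 0.20) was not called (adjusted p = 0.300). This comparison uses the control libraries that entered the choice of the gene. HS_AOS against AOS compares neither HS nor control libraries, although the spread is estimated over all 18 libraries. There the means were 20.7 ± 2.50 and 13.9 ± 1.58 FPKM without overlap (7.29% of all genes in this direction). The log2 change of 0.54 (SE 0.20) was not called (adjusted p = 0.471). The difference between the effect of diet and STZ with and without AOS was -0.51 for Cyp1b1, given without a test since HS against control is part of it.

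Set against AOS, HS_AOSFMT spleens had 1.88 times the mean of Cyp1b1 (log2 change 0.85, SE 0.20, adjusted p = 0.0214), while HS_conFMT spleens had 1.06 times the mean (log2 change 0.06, adjusted p = 0.966). These comparisons were added after the data had been seen and share the AOS libraries, and their groups differ in diet, STZ and transplant. The AOS group had AOS itself, the HS_AOSFMT label names AOS only with the transplant, and the HS_conFMT label names no AOS. Without HS_AOSFMT 2, HS_AOSFMT 3, AOS 1 or AOS 2 the call was lost (adjusted p of 0.0712 to 0.102).

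**Figure D4:**
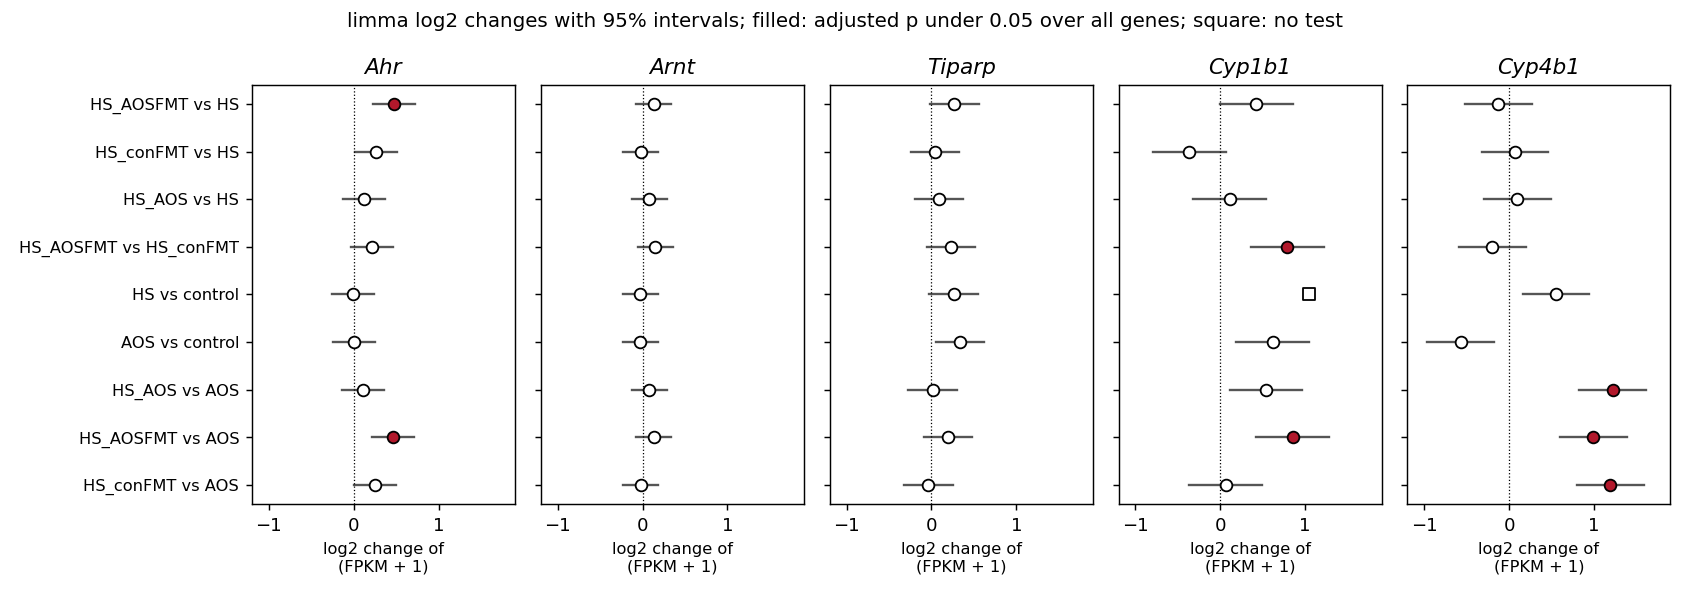
limma log2 changes of FPKM + 1 (x axis) with 95% intervals for the 5 tested members in 9 comparisons (y axis), each the first-named group minus the second. Filled points are called over all genes, open points are not, and the square for Cyp1b1 in HS against control has no test; for Cyp4b1 the 3 filled points, at 0.99 to 1.22, are the comparisons against AOS.

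Cyp4b1 was lowest with AOS alone, and its levels largely parted the libraries with diet and STZ from the others. It had 6.89, 10.2 and 12.6 FPKM in HS_AOSFMT spleens, 10.8, 10.5 and 12.4 FPKM in HS_conFMT spleens and 9.26, 13.1 and 12.3 FPKM in HS_AOS spleens. HS spleens had 8.48, 11.4 and 12.4 FPKM, AOS spleens 4.18, 4.47 and 4.40 FPKM, and control spleens 6.91, 5.73 and 8.41 FPKM. Of the 12 libraries with diet and STZ, 11 lay above the highest of the other 6 (8.41 FPKM), and the exception was HS_AOSFMT 1. At least 11 of these 12 libraries lay above the other 6 for 0.2% of all genes tested.

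In HS_AOS spleens Cyp4b1 averaged 11.6 ± 2.04 FPKM, against 4.35 ± 0.151 FPKM in AOS spleens (SD, n = 3 each). The ratio of the means was 2.66, and Cyp4b1 rose by a log2 change of 1.22 (SE 0.18, adjusted p = 0.0337), with the second smallest p of all genes tested. It was the single call among the 5 tested members, in a comparison with 0.0386% of all genes called. Since the members were chosen with earlier results of these data known, this rank and call are not independent support. The call was lost with no minimum level (adjusted p = 0.0614) and without HS_AOS 2 (0.132), HS_AOS 3 (0.185), AOS 1 (0.311), AOS 2 (0.0721) or AOS 3 (0.155), at log2 changes of 1.13 to 1.23. It remained without HS_AOS 1 (log2 change 1.36, adjusted p = 0.0434), which had the largest acinar signal, a summed 25338 FPKM.

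In the matching comparison without AOS, Cyp4b1 averaged 10.8 ± 2.04 FPKM in HS spleens and 7.02 ± 1.34 FPKM in control spleens. The groups did not overlap, as for 3.89% of all genes in this direction, and the log2 change of 0.55 (SE 0.18) was not called (adjusted p = 0.624). AOS spleens lay below control spleens with a log2 change of -0.57 (SE 0.18, adjusted p = 0.294), also without overlap, as for 4.79% of all genes. The difference between the effects of diet and STZ with and without AOS was 0.67 for Cyp4b1 and was not called (adjusted p = 0.739).

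Against AOS, Cyp4b1 was also higher with either transplant. Both comparisons were added after the data had been seen, and AOS was the group lowest for Cyp4b1. Their groups also differ in diet, STZ, transplant and AOS dosing. In HS_AOSFMT against AOS, 6.05% of all genes were called. There Cyp4b1 rose by a log2 change of 0.99 (SE 0.18, adjusted p = 0.00648), a call that held in all 12 alternative fits (adjusted p of 0.00151 to 0.0378). In HS_conFMT spleens it rose by 1.19 (SE 0.18, adjusted p = 0.0412), the smallest p of the 12969 genes in a comparison with 0.0771% of them called. That call was lost without each of the 6 libraries in turn (adjusted p of up to 0.274). All 3 comparisons share the AOS libraries, which lay between 4.18 and 4.47 FPKM. The limit that members were chosen with earlier results known holds for these ranks and calls too.

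Among the 4 groups with diet and STZ, Cyp4b1 did not separate. The HS_AOSFMT mean was 9.89 ± 2.85 FPKM, the HS_conFMT mean 11.2 ± 1.05 FPKM, the HS_AOS mean 11.6 ± 2.04 FPKM and the HS mean 10.8 ± 2.04 FPKM. The log2 change between the transplants, HS_AOSFMT against HS_conFMT, was -0.20 (95% interval -0.59 to 0.20, adjusted p = 0.559). Adipocyte marker genes, which can come from fat at the splenic hilum, summed to 141 to 221 FPKM in HS_AOSFMT, 66.5 to 438 in HS_conFMT, 46.5 to 104 in HS_AOS, 31.3 to 111 in HS, 148 to 449 in AOS and 50.6 to 277 FPKM in control spleens, with the 2 largest sums in AOS 2 and HS_conFMT 2. In HS_AOS against AOS, 9 of the 10 adipocyte genes were tested: none of the 9 was called, all 9 had log2 changes below 0, and their median was -1.60, beside -0.01 for all genes. Their part in the result for Cyp4b1 was not tested.

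Ido1 stayed low, at or under 0.55 FPKM, in every spleen. It had 0.21, 0.31 and 0.26 FPKM in HS_AOSFMT, 0.25, 0.51 and 0.21 FPKM in HS_conFMT, 0.55, 0.36 and 0.15 FPKM in HS_AOS, and 0.46 and 0.50 FPKM in 2 HS libraries with HS 3 listed at 0. AOS spleens had 0.36, 0.53 and 0.15 FPKM and control spleens 0.17, 0.35 and 0.05 FPKM. All groups overlapped, and with no minimum level its log2 changes had adjusted p of 0.687 or more in every comparison.

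The remaining kynurenine pathway and ligand supply genes were listed under 16 symbols, of which 14 were in the table and 11 were tested. The absent symbols, Ccbl1 and Ccbl2, are former names of the listed Kyat1 and Kyat3. None of the 11 was called in any comparison. Il4i1, an enzyme that makes AhR ligands from aromatic amino acids, had group means of 40.7 FPKM in HS_AOSFMT, 46.8 in HS_conFMT, 44.7 in HS_AOS, 41.9 in HS, 52.6 in AOS and 37.3 in control spleens. Kmo, which hydroxylates kynurenine, ran between 20.8 and 37.7 FPKM over the libraries, whereas Ido2 stayed at or under 0.28 FPKM. Between the transplants the genes with the smallest p were Kyat3 and Kyat1, which convert kynurenine to kynurenic acid: 3.27 ± 0.217 FPKM in HS_AOSFMT against 2.31 ± 0.514 in HS_conFMT spleens for Kyat3 (adjusted p = 0.124), and 6.41 ± 0.342 against 5.23 ± 0.275 FPKM for Kyat1 (adjusted p = 0.156).

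Interferon gamma signalling, which induces Ido1, was read from 11 genes, all tested. In HS_AOSFMT against HS, 2 of the 11 were called higher and 0 lower, where 8.08% of all genes were called higher and 1.15% lower, and the median log2 change was 0.25 beside 0.10 for all genes. Ifngr1, the ligand-binding chain of the receptor, averaged 95.9 ± 6.73 FPKM in HS_AOSFMT spleens against 61.2 ± 5.63 FPKM in HS spleens (log2 change 0.64, SE 0.10, adjusted p = 0.00427). Ifngr2, the other chain, averaged 53.3 ± 1.13 against 41.5 ± 2.46 FPKM (log2 change 0.35, SE 0.09, adjusted p = 0.0328). Ifngr1 was also called against HS_conFMT, at 67.4 ± 8.93 FPKM there (log2 change 0.51, SE 0.10, adjusted p = 0.0126). It was the 1 call of the 11 there, where 5.85% of all genes were called, so the count is near the background. Against AOS, a comparison added after the data had been seen, 2 of the 11 were called higher, where 6.05% of all genes were called. Ifng itself ran between 0.68 and 2.04 FPKM and was not called in any comparison.

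Beyond the members, 18 further genes induced by AhR in at least some tissue were listed, and 10 of them were tested. In HS_AOSFMT against HS, 1 of the 10 was called higher and 0 lower, near the 8.08% of all genes called higher, with a median log2 change of -0.08 beside 0.10 for all genes. Among the detoxification genes that AhR induces in liver, Nqo1 averaged 4.67 FPKM in HS_AOSFMT, 6.40 in HS_conFMT, 8.21 in HS_AOS, 7.32 in HS, 6.45 in AOS and 8.26 in control spleens and was not called. Nfe2l2, a regulator of such genes, was called against AOS alone, at 55.0 ± 2.76 FPKM in HS_AOSFMT spleens and 47.1 ± 0.411 FPKM in AOS spleens (log2 change 0.22, SE 0.06, adjusted p = 0.0376). That comparison was added after the data had been seen. In it 2 of the 10 were called higher and 0 lower, where 6.05% of all genes were called. The median log2 change of the 10 there was -0.21, beside 0.04 for all genes. Il22, an AhR-dependent cytokine of innate lymphoid cells, stayed at or under 0.10 FPKM, and Gsta1 was listed at 0 in all 18 libraries.

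In HS against control, the listed targets with the smallest p were the glucuronosyltransferases Ugt1a6b and Ugt1a6a, which lay on the other side from Cyp1b1. Ugt1a6b averaged 1.60 ± 0.476 FPKM in HS spleens and 2.82 ± 0.214 FPKM in control spleens (log2 change -0.57, SE 0.20, adjusted p = 0.673), and Ugt1a6a averaged 0.527 ± 0.105 and 1.17 ± 0.254 FPKM (adjusted p = 0.743). Both pairs of groups lay apart without overlap, as for 4.65% of all genes lower in this direction, and neither was called. These genes share exons within the Ugt1a cluster, so their reads may have been split between them.

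Other cytochrome genes of xenobiotic and steroid metabolism numbered 21, with 14 tested. In HS_AOSFMT against HS, 1 of the 14 was called higher and 0 lower, where 8.08% of all genes were called higher, so the count is near the background; the median log2 change was 0.20, beside 0.10 for all genes. That gene was Cyp7b1, which hydroxylates oxysterols: 3.42 ± 0.913 FPKM in HS_AOSFMT spleens against 1.65 ± 0.174 FPKM in HS spleens (log2 change 0.72, SE 0.19, adjusted p = 0.0300). In HS against control and in HS_AOS against AOS none of the 14 was called.

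Among the 5 genes whose log2 level followed Cyp1b1 most closely over the 18 libraries, out of 12123 genes with a mean of at least 1 FPKM, were Pvr (Pearson r 0.82), Angptl4 (0.81), Plin2 (0.79) and Tbc1d17 (0.77). Angptl4, a secreted inhibitor of lipoprotein lipase, averaged 19.7 FPKM in HS_AOSFMT, 10.7 in HS_conFMT, 16.5 in HS_AOS, 16.5 in HS, 10.3 in AOS and 8.08 in control spleens. Plin2, a coat protein of lipid droplets, averaged 45.5, 30.8, 33.8, 40.1, 25.05 and 23.6 FPKM in the same groups. The likeness followed the group means: with these taken out, r with Cyp1b1 was 0.10 for Angptl4, -0.03 for Plin2, 0.29 for Pvr and 0.36 for Tbc1d17, and 0 of the 5 genes stayed among the closest 5. The 18 libraries share their groups and their differences in cell content, so these values are descriptions.

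**Figure D5:**
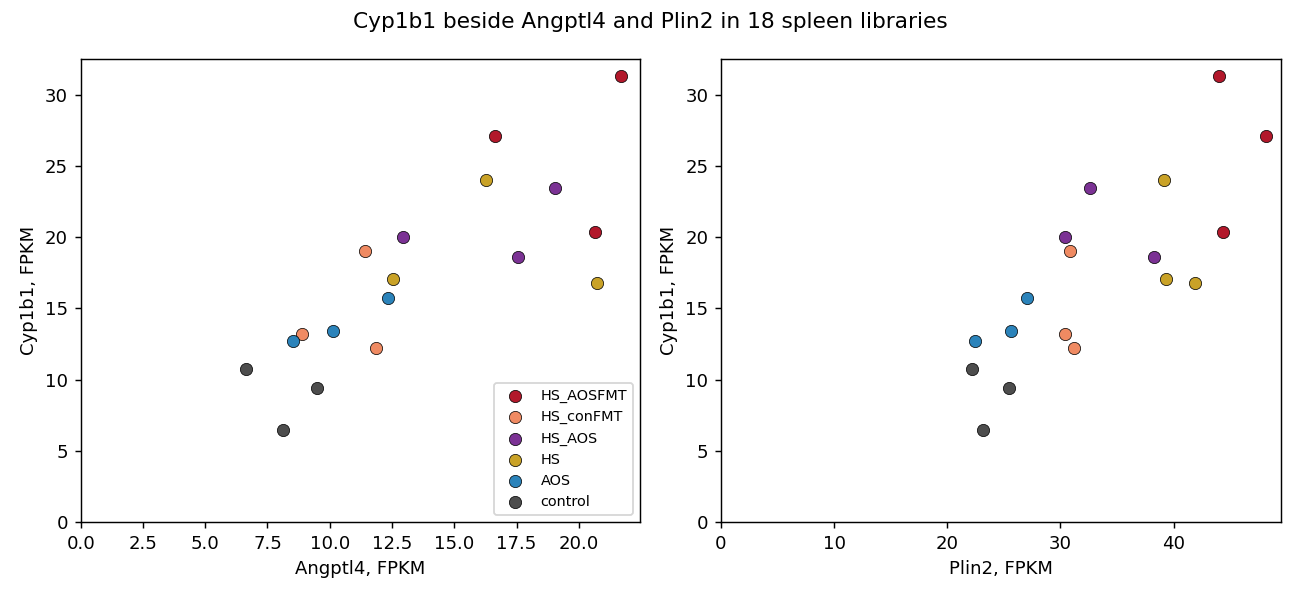
Level of Cyp1b1 (y axis, FPKM) against Angptl4 (left) and Plin2 (right) (x axis, FPKM); each point is 1 of 18 libraries, coloured by group. HS_AOSFMT libraries lie at the upper right and control libraries at the lower left, and with group means taken out r is 0.10 for Angptl4 and -0.03 for Plin2.

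Each other tested member had its own closest genes. For Ahr they were Ppm1h (r 0.91), Castor1 (0.89) and Insig2 (0.89), and with group means taken out the values were 0.82, 0.72 and 0.82. For Tiparp they were Tbc1d14, Trak1 and Gpr137b (r 0.88 each), for Arnt Zfp456, Cds2 and Braf (0.88 each), and for Cyp4b1 Rassf4 (0.84), Mast1 (0.78) and Kctd3 (0.77). The receptor and Cyp1b1 themselves had an r of 0.50 over the 18 libraries and of 0.16 with group means taken out, and Cyp1b1 and Cyp4b1 had an r of 0.51 and 0.50.

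Summed FPKM per library ran between 666441 and 831448, and 12221 to 12898 entries had at least 1 FPKM. Stromal marker genes, whose cells are a known site of Cyp1b1 expression, summed to 1731 to 2248 FPKM in HS_AOSFMT, 1712 to 2941 in HS_conFMT, 1215 to 1873 in HS_AOS, 1500.0 to 1755 in HS, 1658 to 1885 in AOS and 985 to 1829 FPKM in control spleens, and none of the 11 was called in HS_AOSFMT against HS_conFMT or in HS_AOS against AOS. Neutrophil marker genes summed to 1481 to 2033 FPKM in HS_AOSFMT, 792 to 1288 in HS_conFMT and 806 to 15278 FPKM in control spleens, with 15278 in control 1, the library lowest for Cyp1b1. The part of these cell contents in the differences of Cyp1b1 was not tested.

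For the other marker lists, summed levels ran between 84.2 and 143 FPKM for 8 endothelial genes, 115 and 226 FPKM for 6 smooth muscle genes, 16.6 and 56.2 FPKM for 6 mesothelial genes and 40.7 and 68.1 FPKM for 7 genes of conventional type 1 dendritic cells, and none of these was called in any comparison. The 10 macrophage and monocyte genes summed to between 313 and 500.0 FPKM. Among them Vcam1, an adhesion molecule of red pulp macrophages that is also on the list of spleen genes, averaged 132 ± 13.3 FPKM in HS_AOSFMT spleens, against 92.4 ± 7.94 FPKM in HS_conFMT spleens (log2 change 0.51, SE 0.14, adjusted p = 0.0444) and 91.4 ± 8.49 FPKM in AOS spleens (log2 change 0.53, adjusted p = 0.0378). Vcam1 was the 1 call of the 10 in each comparison, where 5.85% and 6.05% of all genes were called. Against HS_conFMT 7 of the 10 had log2 changes above 0, with a median of 0.12 beside 0.06 for all genes. Against AOS, a comparison added after the data had been seen, 3 of the 10 did, with a median of -0.10 beside 0.04. The 7 innate lymphoid and Th17 genes, of which 4 were tested, summed to between 65.6 and 68.5 FPKM in HS_AOSFMT spleens and between 45.9 and 47.5 FPKM in AOS spleens, and Il1r1, a receptor chain for interleukin 1, was called there at 13.1 ± 0.913 against 9.87 ± 0.609 FPKM (log2 change 0.37, SE 0.11, adjusted p = 0.0478). The part of these cells in the differences of Ahr, Cyp1b1 and Cyp4b1 between HS_AOSFMT and AOS spleens was not tested.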

How the data were processed

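Spleen RNA was sequenced in 18 libraries, grouped by their treatment labels. The authors deposited 1 table with a value per gene and library. The deposited values were read as FPKM, fragments scaled for transcript length and library total, from their size and sums, since the header names no unit. Per the submitters' processing notes, Bowtie 0.12.2 and the mm10 build were used; the sources used here do not give the gene counter, annotation or filters. FPKM is relative to the library's total, so abundant transcripts such as haemoglobin lower all other values. Depth is not given, so no counting intervals are stated.

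An entry was tested if 3 or more libraries reached 1 FPKM (12969 of 19326). Linear models on log2(FPKM + 1) were run with limma 3.58.1 (R 4.3.3), with group as the only factor over all libraries and with the trend and robust options of eBayes, which left 12 degrees of freedom and added 3.38 from the prior. p-values are two-sided, and calls are at a Benjamini-Hochberg adjusted p under 0.05. The fit was first tested on simulated data.

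All 8 members are described. The text also names the genes closest to Cyp1b1 (5) and to every other tested member (3) by Pearson r, without predicted genes and immune receptor segments. From 5 pathway lists it names called genes and otherwise up to 4 with the smallest p, and 12 marker lists are given by called genes and sums. Ido2, Il22 and Gsta1 fall outside this rule and were named after their values were seen. Some genes that the rule selects are not reported here. Members, lists and comparisons were chosen with earlier results of these data known, and the comparisons of HS_AOSFMT and HS_conFMT with AOS were added later. The alternatives were another pseudocount, no minimum level, rescalings, a replicate block, groups fitted alone and libraries left out. Promoter windows are from RefSeq, matched by symbol for 6 of the 8 genes.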

Additional observations from a re-analysis of the deposited data

How the results depend on the processing

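Of the 7 calls of members, 6 were lost under at least 1 alternative. Of the alternative fits, Ahr in HS_AOSFMT against HS stayed called in 7 of 13, Cyp1b1 in HS_AOSFMT against HS_conFMT in 5 of 12, Cyp4b1 in HS_AOS against AOS in 7 of 13, Ahr and Cyp1b1 in HS_AOSFMT against AOS in 7 and 8 of 12, Cyp4b1 in HS_AOSFMT against AOS in 12 of 12 and Cyp4b1 in HS_conFMT against AOS in 4 of 12. Directions of the called changes held in all of these. For the calls that were lost the cause was not tested, except that leaving out a library also takes away residual degrees of freedom.

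With haemoglobin and acinar genes taken out of the total, the number of genes called was 372 in HS_AOSFMT against HS (0 members, Ahr 0.38), 476 in HS_AOSFMT against HS_conFMT (0 members, Cyp1b1 0.70), 8 in HS_AOS against AOS and 0 in HS_conFMT against AOS (0 members, Cyp4b1 1.23). The uncalled log2 change of Ahr turned to 0.0086 in HS against control and -0.040 in AOS against control, and in HS_conFMT against AOS those of Arnt and Tiparp turned to 0.024 and 0.0079. After removal of the libraries HS 1, HS_AOS 1 and control 1, 388 genes were called in HS_AOSFMT against HS (0 members, Ahr 0.44), 0 in HS_conFMT against HS, 5 in HS_AOS against HS, 4 in HS against control and 3 in HS_AOS against AOS. Uncalled changes then turned to -0.081 for Cyp4b1 in HS_conFMT against HS, -0.066 for Ahr in AOS against control and -0.015 for Tiparp in HS_AOS against AOS.

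Without a minimum level, 2 genes were called in HS_conFMT against HS, 8 in HS against control, 7 in AOS against control, 1 in HS_AOS against AOS (0 members, Cyp4b1 1.22) and 0 in HS_conFMT against AOS (0 members, Cyp4b1 1.19), and 0 members in HS_AOSFMT against HS_conFMT (Cyp1b1 0.79). With a pseudocount of 0.1 FPKM, 1 gene was called in HS against control, 2 in AOS against control and 0 in the interaction (HS_AOS against AOS minus HS against control). With library medians aligned, 4 genes were called in HS_conFMT against HS, 13 in HS_AOS against AOS and 2 in the interaction, and the uncalled change of Ahr in AOS against control turned to -0.030. With the groups compared fitted alone, 0 genes were called in HS_conFMT against HS, 1 in HS_AOS against HS, 0 in HS against control, 176 in HS_AOSFMT against HS_conFMT (0 members, Cyp1b1 0.79), 8 in HS_AOS against AOS, 1783 in HS_AOSFMT against AOS and 4 in HS_conFMT against AOS.

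Replicate numbers in the labels showed no clear pairing of the libraries. Same-numbered libraries of different groups had correlations of their deviations between -0.37 and 0.49 (median 0.02), and 15 of 45 pairs exceeded 0.1. For different-numbered libraries the correlations ran between -0.57 and 0.44 (median -0.03), and 30 of 90 pairs exceeded 0.1. With the replicate block (the replicate number as an added factor), 0 genes were called in HS_conFMT against HS, 3 in HS_AOS against AOS and 2 in HS_conFMT against AOS, and the members called stayed at 1, 1, 1, 3 and 1 in the 5 comparisons with such calls.

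Leaving out 1 library at a time, the number of genes called ran from 203 to 751 in HS_AOSFMT against HS, 199 to 1201 in HS_AOSFMT against HS_conFMT, 0 to 3 in HS_AOS against HS, 3 to 20 in HS against control, 1 to 49 in AOS against control, 1 to 5 in HS_AOS against AOS, 1 to 8 in the interaction and 241 to 417 in HS_AOSFMT against AOS, and was 0 in both HS_conFMT comparisons (against HS and AOS). Members called ran from 0 to 1 in HS_AOSFMT against HS, HS_AOSFMT against HS_conFMT and HS_AOS against AOS, from 1 to 2 in HS_AOSFMT against AOS, and were 0 elsewhere. These counts leave aside Cyp1b1 in HS against control and in the interaction. Called changes ran from 0.44 to 0.52 for Ahr in HS_AOSFMT against HS, 0.65 to 0.97 for Cyp1b1 in HS_AOSFMT against HS_conFMT, 1.13 to 1.36 for Cyp4b1 in HS_AOS against AOS, and in HS_AOSFMT against AOS from 0.41 to 0.57 for Ahr, 0.72 to 1.02 for Cyp1b1 and 0.82 to 1.21 for Cyp4b1, with 1.12 to 1.23 for Cyp4b1 in HS_conFMT against AOS. Uncalled changes that crossed 0 in these fits were Cyp4b1 in HS_AOSFMT against HS (-0.31 to 0.084), HS_AOSFMT against HS_conFMT (-0.37 to 0.017), HS_conFMT against HS (-0.081 to 0.17) and HS_AOS against HS (-0.052 to 0.24). The others were Arnt in HS_conFMT against HS (-0.069 to 0.019), HS against control (-0.10 to 0.087), AOS against control (-0.10 to 0.087), the interaction (-0.0072 to 0.18) and HS_conFMT against AOS (-0.068 to 0.020), Ahr in HS against control (-0.079 to 0.053) and AOS against control (-0.092 to 0.068), Tiparp in HS_conFMT against HS (-0.092 to 0.12), HS_AOS against AOS (-0.022 to 0.069) and HS_conFMT against AOS (-0.17 to 0.046), and Cyp1b1 in HS_conFMT against AOS (-0.12 to 0.18). Of the 5 genes most like Cyp1b1, 0 stayed when group means were taken out.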
